A study of Homo sapiens with 7 samples.

Results

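Of the 19978 genes in the table, 8 are described here: the proton exchangers SLC9A7 and SLC9A8, the bicarbonate transporters SLC4A2, SLC4A7 and SLC4A8, the lactate transporters SLC16A1 and SLC16A3, and BSG, the membrane protein that escorts the lactate transporters. They were chosen by name, for what their proteins carry and with earlier results of these data known, and all 8 were found in the table. All 8 also passed the filter on low counts that left 14863 genes for testing. RNA was sequenced from HEK-293, an established human embryonic kidney cell line, after 48 h of culture. The control was DMEM at pH 7.4 with DMSO as vehicle (2 samples), acidosis was DMEM brought to pH 6.6 with acid, also with DMSO (3 samples), and the third group was DMEM at pH 7.4 with 10 µM SRPIN340 in DMSO (2 samples). SRPIN340 inhibits the SR protein kinases, which phosphorylate splicing factors, and all 3 groups carried the vehicle. The model is 1 cell line and no sample combined acid medium with the inhibitor. The methods call the samples biological repeats that were each sequenced in replicates, the table has 1 column per sample, and the labels do not say that the cultures were separate, so the p-values measure the spread between these samples.

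Cells make acid all the time, and the members stand at different points of its removal. Exchangers of the SLC9 family trade sodium or potassium for protons at the cell surface or at inner membranes, SLC4 proteins carry bicarbonate, the main soluble buffer, either inward to remove acid or outward in exchange for chloride to load it, and SLC16 monocarboxylate transporters move lactate together with a proton. Basigin, the product of BSG, is an escort that accompanies SLC16A1 and SLC16A3 to the cell surface.

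Library totals lay between 13615816 and 24110460 estimated counts, and the smallest belonged to an acidosis sample. The scaling factors of the trimmed mean of M values (TMM), which adjust a total for its most abundant and most changed genes, were 1.17 and 1.18 for control, 1.21 for both SRPIN340 samples, and 0.788, 0.800 and 0.782 for acidosis. This choice sets a common offset: across all genes tested, the median log2 fold change in acidosis was -0.05 with TMM and -0.63 when libraries were scaled by their total count only. Levels below are CPM, a gene's counts per 1e6 counts of the TMM-scaled library total. The 5 markers of HEK-293 cells (PAX2, NEFL, NEFM, VIM and CDH2) were found in every sample, and their summed level was 1160 to 1240 CPM in control and 3180 to 3200 CPM in acidosis, where VIM was higher and PAX2 lower. Of 5 markers of blood, liver, endothelial and macrophage cells, CD3E was at 0 in every sample, and the 5 summed to between 0.612 and 0.983 CPM in control, between 0.835 and 0.995 CPM with SRPIN340 and between 2.39 and 3.21 CPM in acidosis. These bulk samples cannot tell fewer cells of a kind from less RNA per cell, and the part of these markers in the results below was not tested.

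On GRCh38, in the GENCODE release 44 annotation, SLC9A7 (ENSG00000065923.10) lies at chrX:46599251-46759118 on the minus strand and SLC9A8 (ENSG00000197818.12) at chr20:49812713-49892242 on the plus strand. SLC4A2 (ENSG00000164889.15) lies at chr7:151057210-151076526 on the plus strand, SLC4A7 (ENSG00000033867.17) at chr3:27372721-27484420 on the minus strand and SLC4A8 (ENSG00000050438.17) at chr12:51391317-51515763 on the plus strand. SLC16A1 (ENSG00000155380.13) lies at chr1:112911847-112957593 on the minus strand, SLC16A3 (ENSG00000141526.18) at chr17:82217934-82261129 on the plus strand and BSG (ENSG00000172270.22) at chr19:571277-583494 on the plus strand. The coding genes CDK5, GALNT6 and CSNK1D overlap SLC4A2, SLC4A8 and SLC16A3 on the opposite strand, and the noncoding SLC4A8-AS1, SLC16A1-AS1 and BSG-AS1 lie antisense to their namesakes. The sources used here do not say whether strand was used in quantification, so reads of such partners could be shared and these members are uncertain to that extent.

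Promoter sequence was available for 7 of the 8 members, from RefSeq on GRCh38.p14, in 17 windows that run from 250 bases before to 50 bases after a start site. The windows at the canonical start of 4 members are shown, because SLC9A7 and BSG were higher in acidosis and SLC4A2 and SLC4A7 were lower, and they can be read side by side. They are SLC9A7 at chrX:46759069-46759368 (minus strand), BSG at chr19:572346-572645 (plus), SLC4A2 at chr7:151059339-151059638 (plus) and SLC4A7 at chr3:27484335-27484634 (minus), each 5′ to 3′, with capitals for the motif matches on either strand.
SLC9A7: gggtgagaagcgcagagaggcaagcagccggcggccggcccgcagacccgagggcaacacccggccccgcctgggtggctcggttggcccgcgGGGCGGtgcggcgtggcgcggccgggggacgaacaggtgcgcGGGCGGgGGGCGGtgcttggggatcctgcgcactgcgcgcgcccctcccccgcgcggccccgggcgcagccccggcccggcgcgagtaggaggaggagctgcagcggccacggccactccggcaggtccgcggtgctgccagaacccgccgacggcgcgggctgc
BSG: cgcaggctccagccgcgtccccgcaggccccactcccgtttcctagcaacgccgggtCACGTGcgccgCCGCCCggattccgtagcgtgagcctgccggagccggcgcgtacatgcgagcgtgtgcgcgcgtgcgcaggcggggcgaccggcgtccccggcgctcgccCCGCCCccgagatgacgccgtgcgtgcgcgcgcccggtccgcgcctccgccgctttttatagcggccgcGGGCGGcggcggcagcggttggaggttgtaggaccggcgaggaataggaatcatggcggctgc
SLC4A2: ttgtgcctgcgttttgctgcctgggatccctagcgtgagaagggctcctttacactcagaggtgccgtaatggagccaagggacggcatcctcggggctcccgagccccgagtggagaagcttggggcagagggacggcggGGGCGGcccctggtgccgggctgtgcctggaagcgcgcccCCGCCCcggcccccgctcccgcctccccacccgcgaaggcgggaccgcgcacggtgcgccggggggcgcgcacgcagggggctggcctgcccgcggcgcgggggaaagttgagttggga
SLC4A7: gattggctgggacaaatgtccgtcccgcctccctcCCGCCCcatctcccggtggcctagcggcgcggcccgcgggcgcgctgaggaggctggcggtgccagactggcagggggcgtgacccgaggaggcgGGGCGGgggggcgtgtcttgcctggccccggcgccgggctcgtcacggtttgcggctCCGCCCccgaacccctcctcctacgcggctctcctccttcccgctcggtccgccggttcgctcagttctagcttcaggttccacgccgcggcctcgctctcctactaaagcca
The motifs searched were CACGTG (the E-box), ACGTG (the core of the hypoxia response element, which every E-box also contains), TGANTCA (the AP-1 site), TGACGTCA (the cyclic AMP response element) and GGGCGG (the GC box). All 4 windows held GC boxes, 3 in SLC9A7, 3 in BSG, 2 in SLC4A2 and 3 in SLC4A7. The BSG window alone of these 4 also held an E-box, which begins at position -193 from the start. Members that were higher and members that were lower both had GC-rich canonical windows with GC boxes. Their GC content was 80.7% in SLC9A7, 75.3% in BSG, 73.7% in SLC4A2 and 73.0% in SLC4A7. The median was 58.7% over 34943 windows of all genes, which include starts other than the canonical one. At such other starts the GC content was 56.7% in BSG, 62.7% to 67.0% in SLC4A2 and 36.7% in SLC4A7. Over all 17 member windows, 10 held a GC box (44.9% of all windows did), 3 an E-box (7.23% of all), 4 the ACGTG core (21.4% of all), 1 an AP-1 site (7.72% of all) and 0 the cyclic AMP response element (1.84% of all). The E-boxes outside BSG were in overlapping windows at later SLC4A2 starts, the AP-1 site was in SLC9A8, and SLC16A3 held ACGTG cores at its canonical start. These are matches of letters in these windows and no measure of binding.

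The first comparison asked how the members responded to 48 h at pH 6.6. BSG rose the most, SLC9A7 and SLC16A1 rose, SLC4A2 and SLC4A7 fell, and SLC9A8, SLC4A8 and SLC16A3 did not pass the test. Of the 8 members, 3 passed higher, where 32.5% of all genes tested did, and 2 passed lower, where 34.2% of all genes did, so the members changed about as often as genes at large. Passing means an adjusted p under 0.05 in edgeR's quasi-likelihood test with the Benjamini-Hochberg adjustment over all genes, and a call also asks for an absolute log2 fold change over 1. Only BSG was called, higher, as 14.4% of all genes were, and no member was called lower, where 19.1% of all genes were. The median log2 fold change of the members was 0.10, beside -0.05 for all genes. With libraries scaled by total count only, 1 member passed higher and 3 lower, where 16.2% and 55.0% of all genes did, and the calls became 0 higher and 2 lower, where 5.48% and 35.0% of all genes were called. Without control replicate 2 the members that passed were 3 rather than 5, and without control replicate 1 the calls were 2.

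**Figure D1:**
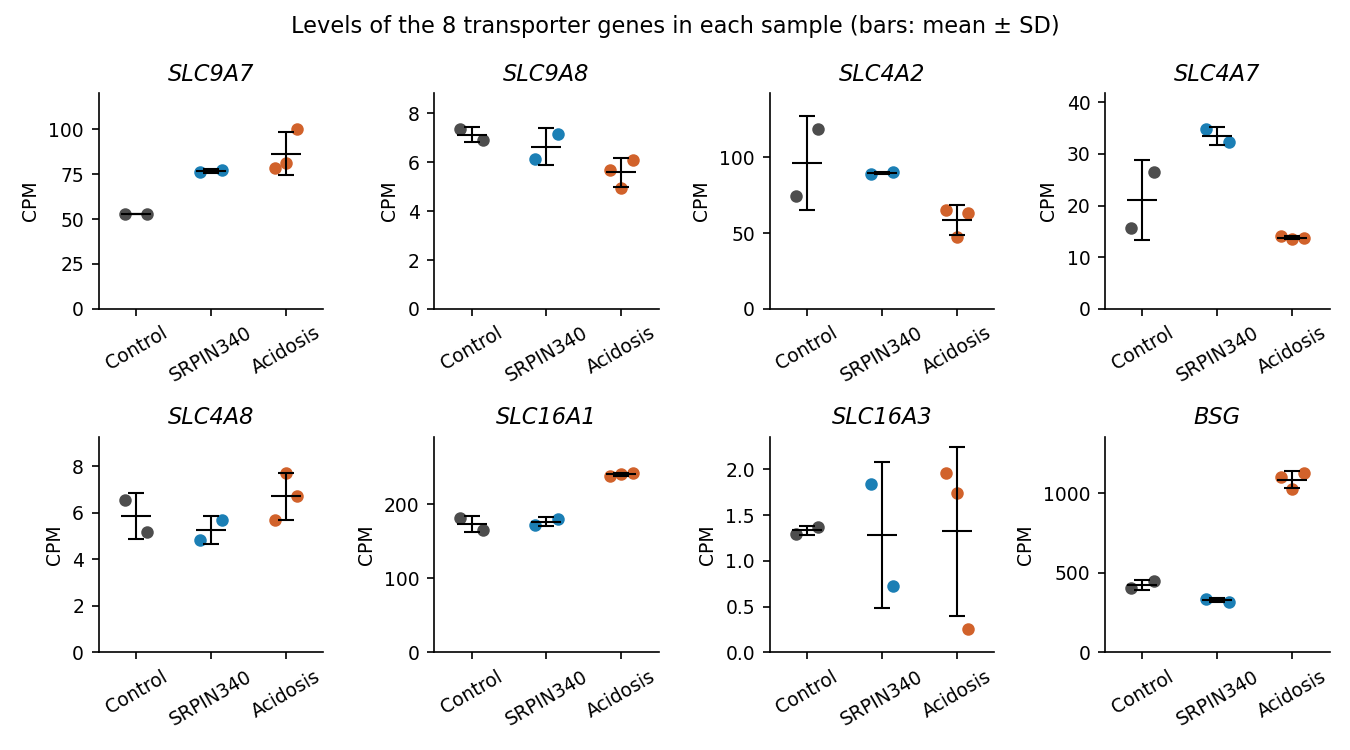
CPM of each member in control (2 samples), SRPIN340 (2 samples) and acidosis (3 samples), with points for samples and bars for the mean ± SD on an axis that starts at 0 in each panel. BSG runs from 403 to 447 CPM in control and from 1028 to 1129 CPM in acidosis, and the 2 control samples lie far apart for SLC4A2 and SLC4A7.

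Among the proton exchangers, SLC9A7 encodes the exchanger of the trans-Golgi network, which trades sodium or potassium for protons. It stood at 52.8 and 52.6 CPM in control and at 78.4, 81.2 and 100.0 CPM in acidosis. Every acidosis sample was above both controls, and the third was highest. Control averaged 52.7 ± 0.134 CPM (SD, n = 2) and acidosis 86.5 ± 11.8 CPM (SD, n = 3), for a fitted log2 difference of 0.71 (SE 0.11, 95% interval 0.46 to 0.96) with an adjusted p of 0.000295 by edgeR's quasi-likelihood test. The rise was 1.64-fold, with a log2 fold change above that of 76.5% of the genes tested, and with total count scaling the value was 0.14 (adjusted p = 0.27).

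SLC9A8 encodes an exchanger of the Golgi, endosomes and, in epithelia, the apical membrane. Its level was 7.35 and 6.92 CPM in control and 5.70, 4.96 and 6.11 CPM in acidosis. The acidosis samples were all below the controls, but the fitted log2 fold change of -0.35 (95% interval -0.78 to 0.08) did not pass (edgeR adjusted p = 0.129). It passed with total count scaling, at -0.92 (edgeR adjusted p = 0.00137). The ratio of the exchangers within a library does not depend on the scaling between libraries. SLC9A7 had 7.37 times the counts of SLC9A8 in control and 15.3 times in acidosis, a 2.08-fold larger ratio, and the 3 acidosis values were above the 2 controls. The exact permutation test, two-sided, gave p = 0.1, the smallest that 3 samples against 2 allow. With SRPIN340 the ratio was 11.6 times. Both SRPIN340 samples were also above the controls, at log2 ratios of 3.63 and 3.43 beside 2.84 and 2.92.

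SLC4A2, or anion exchanger AE2, lets bicarbonate out in exchange for chloride and so loads the cytosol with acid. It stood at 74.2 and 118 CPM in control and at 64.9, 47.3 and 63.5 CPM in acidosis. The acidosis samples were below both controls, yet the controls themselves differed 1.60-fold, and 0.631% of the 10137 genes with at least 10 CPM in control had as wide a gap between these 2 samples. Control averaged 96.3 ± 31.3 CPM (SD, n = 2) and acidosis 58.6 ± 9.78 CPM (SD, n = 3), for a fitted log2 difference of -0.71 (SE 0.19, 95% interval -1.14 to -0.29, edgeR adjusted p = 0.00742). Without control replicate 2, the higher one, the value was -0.36 (edgeR adjusted p = 0.102), and without control replicate 1 it was -1.02 (edgeR adjusted p = 0.000722). CDK5, which overlaps it on the opposite strand, had a log2 fold change of -0.01 (edgeR adjusted p = 0.933).

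SLC4A7, the electroneutral sodium bicarbonate cotransporter NBCn1, brings bicarbonate into the cell. Its level was 15.6 and 26.5 CPM in control and 14.1, 13.6 and 13.7 CPM in acidosis. The acidosis samples lay within a narrow band just under the lower control, while the controls differed 1.70-fold, a gap that 0.385% of the 10137 genes reached. Control averaged 21.1 ± 7.74 CPM (SD, n = 2) and acidosis 13.8 ± 0.260 CPM (SD, n = 3), and the log2 fold change was -0.61 (SE 0.20, 95% interval -1.06 to -0.16, edgeR adjusted p = 0.0217). Passing rested on control replicate 2, again the higher one, since without it the value was -0.20 (edgeR adjusted p = 0.308), without control replicate 1 it was -0.95, and leaving out acidosis replicate 3 moved the adjusted p to 0.0513 at a log2 fold change of -0.60.

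SLC4A8, the sodium-driven chloride/bicarbonate exchanger NDCBE, also imports bicarbonate. It was low, at 6.56 and 5.16 CPM in control and 5.70, 7.71 and 6.71 CPM in acidosis. The groups overlapped, and the log2 fold change of 0.19 (95% interval -0.31 to 0.68) did not pass (edgeR adjusted p = 0.471). GALNT6, its neighbor on the opposite strand, fell from a mean of 26.8 CPM in control to 13.2 CPM in acidosis (log2 fold change -1.03, edgeR adjusted p = 0.00012). SLC4A7 exceeded SLC4A8 by 1.803 log2 units of estimated counts in control and by 1.05 in acidosis, with groups that overlapped (exact permutation p = 0.2). SLC4A2 exceeded SLC4A7 by 2.20 log2 units in control and 2.07 in acidosis (exact permutation p = 0.8). In control, both genes were higher in replicate 2, and their ratio differed little between the 2 replicates, at 2.25 and 2.16 log2 units.

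**Figure D2:**
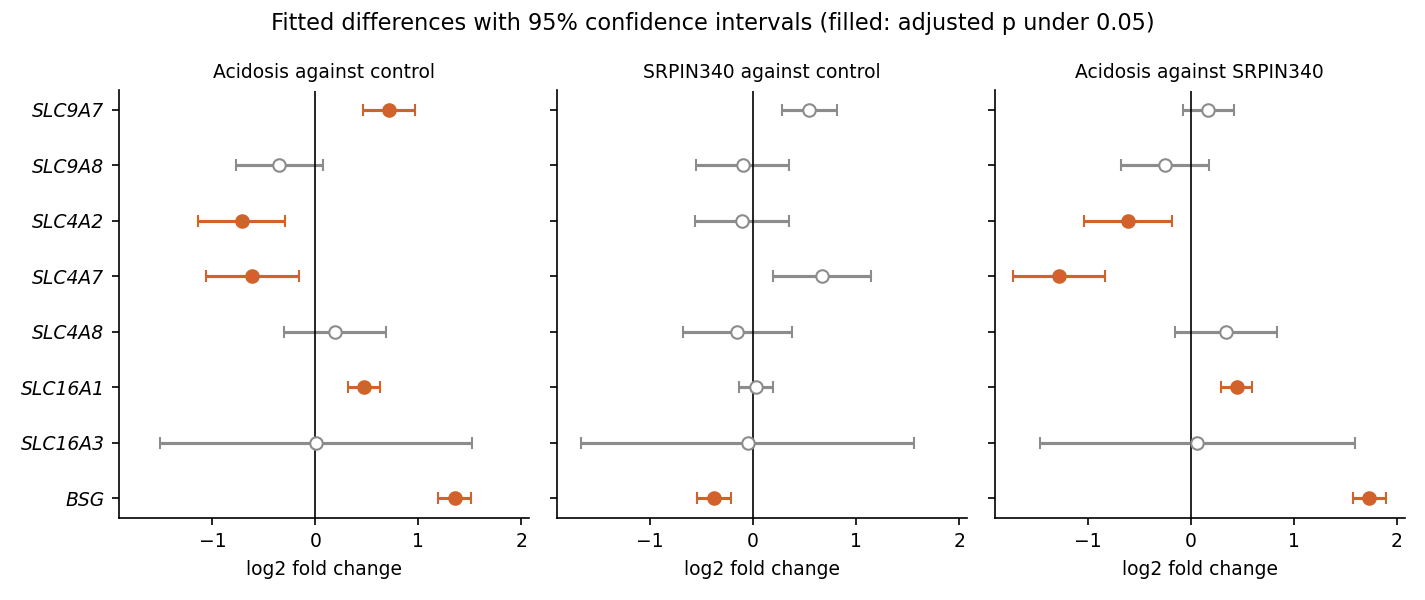
Log2 fold change of each member with its 95% confidence interval in the 3 comparisons, filled where the adjusted p was under 0.05. BSG lies highest in acidosis against control at 1.35, SLC4A7 lies lowest in acidosis against SRPIN340 at -1.28, and the SLC16A3 intervals are the widest.

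SLC16A1, or MCT1, is the broadly expressed proton-coupled lactate transporter. It stood at 181 and 165 CPM in control and at 237, 240 and 242 CPM in acidosis. The acidosis samples were close to each other and above both controls. Control averaged 173 ± 11.2 CPM (SD, n = 2) and acidosis 240 ± 2.36 CPM (SD, n = 3), for a fitted log2 difference of 0.47 (SE 0.07, 95% interval 0.32 to 0.62, edgeR adjusted p = 0.000162). This direction depends on the scaling: by total count only, SLC16A1 was at -0.10 (edgeR adjusted p = 0.184).

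SLC16A3, or MCT4, is the lactate exporter known for its high levels in glycolytic and hypoxic cells. It was near the limit of detection here, with 1.30 and 1.37 CPM in control and 1.96, 1.74 and 0.258 CPM in acidosis, the last value resting on 2.92 estimated counts. The acidosis samples lay on both sides of the controls. The log2 fold change was 0.01 with a 95% interval from -1.51 to 1.53 (edgeR adjusted p = 0.991), which does not exclude a change of either sign within that range. The log2 ratio of SLC16A3 to SLC16A1 was -7.10 and -6.91 in control and -6.92, -7.09 and -9.68 in acidosis. CSNK1D, which overlaps SLC16A3 on the opposite strand, averaged 196 CPM in control and 255 CPM in acidosis. Its log2 fold change was 0.38 (edgeR adjusted p = 0.0011), and whether SLC16A3 shared its reads was not tested.

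BSG encodes basigin, also called CD147, a glycoprotein of the immunoglobulin superfamily. It stood at 403 and 447 CPM in control and at 1102, 1028 and 1129 CPM in acidosis. Each acidosis sample held over 2 times the level of either control. Control averaged 425 ± 31.6 CPM (SD, n = 2) and acidosis 1086 ± 52.4 CPM (SD, n = 3), a 2.56-fold rise with a log2 fold change of 1.35 (SE 0.07, 95% interval 1.19 to 1.51, edgeR adjusted p = 2.16e-07). Of all genes tested, 91.2% had a lower log2 fold change than BSG. By total count only the value was 0.78 (edgeR adjusted p = 4.7e-06), which passed but was no longer over 1.

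SLC16A1, the carrier, rose 1.39-fold and BSG, its escort, 2.56-fold. Within a library, BSG had 2.46 times the estimated counts of SLC16A1 in control, 1.86 times with SRPIN340 and 4.53 times in acidosis. The log2 ratio was 1.16 and 1.44 in control and 2.22, 2.10 and 2.22 in acidosis, without overlap, and the ratio was 1.84-fold larger in acidosis (two-sided exact permutation p = 0.1, the smallest possible). The other lactate transporter escorts of the same protein family went the other way. NPTN (neuroplastin) fell from 129 ± 7.98 to 102 ± 5.43 CPM in acidosis (SD, n = 2 and 3), for a fitted log2 difference of -0.33 (edgeR adjusted p = 0.00385). EMB (embigin) fell from 87.3 ± 11.8 CPM to 54.2 ± 4.57 CPM, a log2 fold change of -0.68 (edgeR adjusted p = 0.000296).

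**Figure D3:**
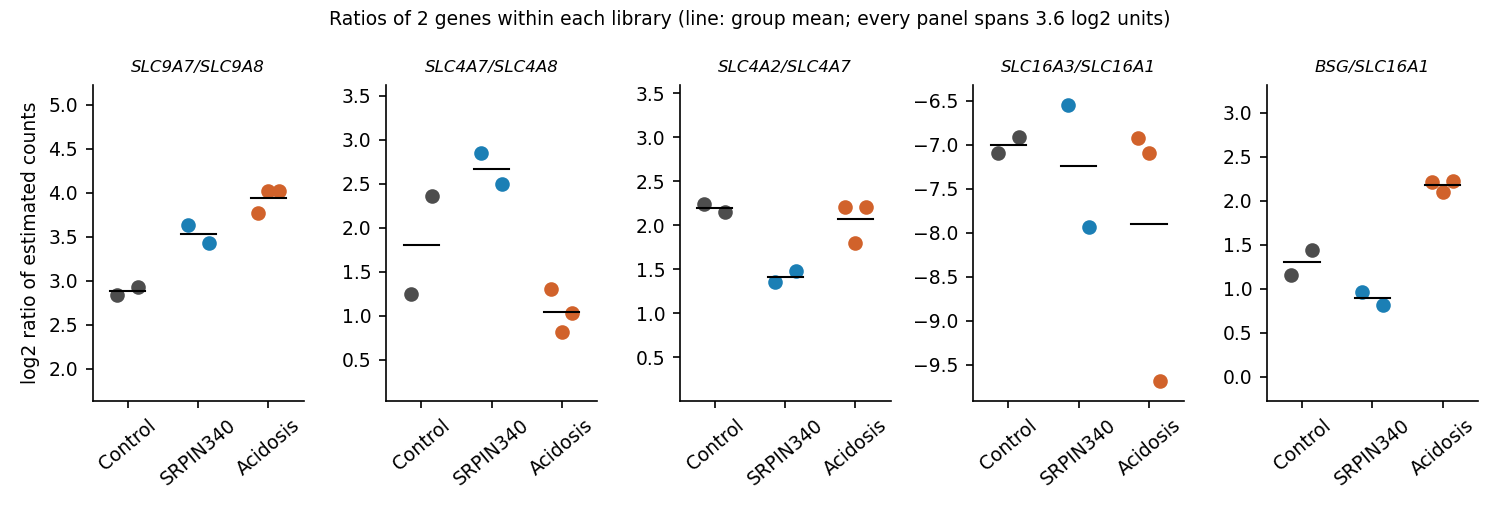
Log2 ratio of the estimated counts of 2 members within each library, which no scaling between libraries can move, with points for samples and a line for each group mean. SLC9A7/SLC9A8 and BSG/SLC16A1 are higher in every acidosis sample than in both controls, while SLC16A3/SLC16A1 falls to -9.68 in 1 acidosis sample. SLC9A7/SLC9A8 also lies above both controls in the SRPIN340 samples.

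Levels of different genes were compared as CPM per kilobase of the canonical transcript. In control the order was BSG at 218 ± 16.2, SLC16A1 at 46.1 ± 2.97, SLC4A2 at 23.4 ± 7.59, SLC9A7 at 5.29 ± 0.0134, SLC4A7 at 2.61 ± 0.958, SLC9A8 at 1.16 ± 0.0498, SLC16A3 at 0.513 ± 0.0197 and SLC4A8 at 0.498 ± 0.0839 CPM per kilobase (SD, n = 2). Only the last pair of neighbors overlapped. In acidosis BSG stood at 558, SLC16A1 at 63.9, SLC4A2 at 14.2 and SLC9A7 at 8.68 CPM per kilobase, and the only exchange of places was between SLC4A8 and SLC16A3, whose samples again overlapped. BSG made up 73.3% of the summed per-kilobase level of the 8 members in control, 86.0% in acidosis and 67.0% with SRPIN340. The order and the shares depend on the transcript taken. With the median length of coding transcripts, 4 of the 8 kept their place in control. SLC4A2, which has many short annotated transcripts, then came before SLC16A1. By that length BSG stood at 265, SLC4A2 at 121 and SLC16A1 at 46.0 CPM per kilobase in control, and the shares were not recomputed.

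Other transporters and partners of these routes were grouped in 6 lists of 54 genes, of which 43 were tested. In acidosis 5 of them passed higher and 18 lower, and 2 were called higher and 12 lower. As shares these were 11.6% and 41.9% passed and 4.65% and 27.9% called, beside 32.5% and 34.2% passed and 14.4% and 19.1% called among all genes, against which the counts of each list below can also be read. Their median log2 fold change was -0.51, or -0.50 with the 2 genes at the counting floor of 3 counts per library set at their bounds, beside -0.05 for all genes. By total count only, 1 passed higher and 24 lower (2.33% and 55.8%, beside 16.2% and 55.0% of all genes), and 0 were called higher and 20 lower (46.5%, beside 35.0% of all genes called lower).

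**Figure D4:**
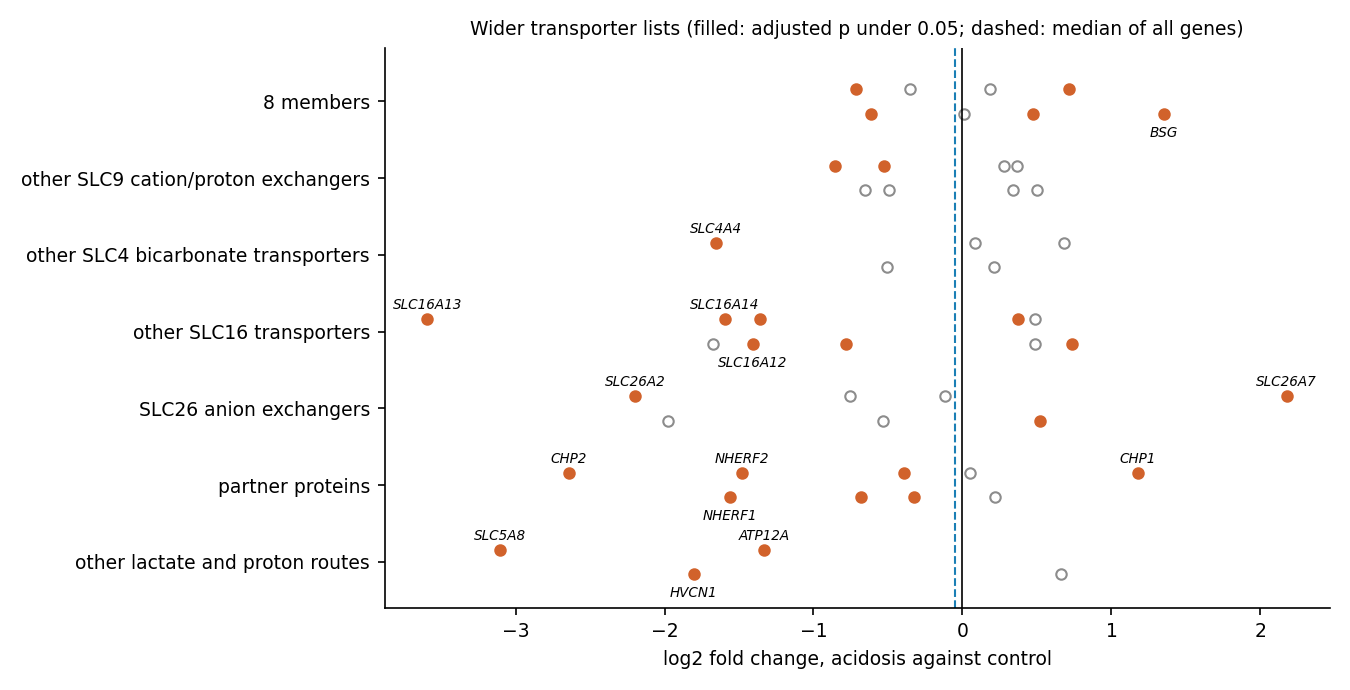
Log2 fold change in acidosis of every tested gene in the 8 members and the 6 wider lists, one row per list, filled where the adjusted p was under 0.05, with a dashed line at the median of all genes (-0.05). Most filled points of the wider lists lie left of the line, down to SLC16A13 at -3.59, and CHP1, SLC26A7 and BSG lie right of it beyond 1.

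Of 8 other SLC9 exchangers tested, 0 passed higher and 2 passed lower, with a median of -0.11. SLC9A2, an exchanger of epithelia, had a log2 fold change of -0.65 that did not pass (edgeR adjusted p = 0.0706), although it did without acidosis replicate 1 (-1.01, edgeR adjusted p = 0.00775).

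Of 5 other SLC4 genes tested, 1 passed, lower, with a list median of 0.08. That gene was SLC4A4, the electrogenic sodium bicarbonate cotransporter NBCe1, at 18.7 and 19.2 CPM in control and 4.69, 5.14 and 8.34 CPM in acidosis. Its log2 fold change was -1.66 (SE 0.21, edgeR adjusted p = 8.32e-05), without overlap of the samples. The anion exchanger SLC4A3 (0.08, edgeR adjusted p = 0.793) and SLC4A11 (-0.51, edgeR adjusted p = 0.0773) did not pass. SLC4A3 changed sign, to -0.49, by total count only, and SLC4A11 passed without acidosis replicate 1 (-0.65, edgeR adjusted p = 0.0487).

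Among 10 other SLC16 genes tested, 2 passed higher and 5 lower, 4 of them called, with a median of -1.07. SLC16A7, the high-affinity lactate transporter MCT2, rose from 12.6 ± 0.885 to 21.1 ± 2.99 CPM in acidosis (SD, n = 2 and 3), for a fitted log2 difference of 0.73 (edgeR adjusted p = 0.00181), which was 0.16 by total count only (edgeR adjusted p = 0.361). SLC16A13, a lesser known relative, fell from 11.96 and 12.2 CPM to 0.891, 1.29 and 0.860 CPM, a log2 fold change of -3.59 (SE 0.21, edgeR adjusted p = 4.49e-07). SLC16A14 fell by 1.60 and SLC16A12, which carries creatine, by 1.41 on the log2 scale (edgeR adjusted p = 3.18e-05 and 0.0172), SLC16A12 from a mean of 1.39 CPM. SLC16A12 did not pass without control replicate 1 or 2, at log2 fold changes of -1.395 and -1.45 (edgeR adjusted p = 0.0691 and 0.0596).

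Of 7 SLC26 anion exchangers tested, 2 passed higher and 1 lower, with a median of -0.54, or -0.42 with 1 gene set at its bound. SLC26A2, the sulfate transporter, fell from 57.4 ± 5.90 to 12.5 ± 0.876 CPM in acidosis (SD, n = 2 and 3), for a fitted log2 difference of -2.19 (SE 0.12, edgeR adjusted p = 2.15e-07). SLC26A7, a chloride/bicarbonate exchanger, was called higher at 2.18 (SE 0.78, edgeR adjusted p = 0.0324), from 0.252 and 0.175 CPM to 0.356, 2.02 and 0.688 CPM, few counts with 1 high sample. It did not pass without control replicate 1 (2.45), control replicate 2 (1.93) or acidosis replicate 2 (1.23), with edgeR adjusted p from 0.0993 to 0.161. SLC26A11 passed higher at 0.52 (edgeR adjusted p = 0.0312) with TMM and stood at -0.06 by total count only, and it did not pass without control replicate 1 (0.31) or acidosis replicate 1 (0.37). The chloride/bicarbonate exchanger SLC26A6 was at -0.11 (edgeR adjusted p = 0.571).

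Of 9 partner proteins tested, 1 passed higher and 6 lower, with a median of -0.39. CHP1, a calcineurin-like protein that binds exchangers of the SLC9 family, rose from 76.5 and 75.6 CPM to 166, 170 and 181 CPM, a log2 fold change of 1.18 (SE 0.07, edgeR adjusted p = 6.23e-07), which by total count only was 0.60 and no longer a call (edgeR adjusted p = 4.06e-05). Its relative CHP2 fell by 2.64 on the log2 scale from a mean of 1.94 CPM (edgeR adjusted p = 0.000589). The scaffolds NHERF1 and NHERF2, which tie exchangers to the cytoskeleton, fell by 1.56 and 1.48 on the log2 scale (edgeR adjusted p = 1.36e-06 and 4.03e-05), NHERF1 from 43.4 ± 3.08 to 14.7 ± 0.819 CPM. AHCYL1, an activator of sodium bicarbonate cotransport, fell from 132 ± 1.91 to 101 ± 2.17 CPM, by 0.39 on the log2 scale (edgeR adjusted p = 0.000475).

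Of 4 genes of other lactate and proton routes, 0 passed higher and 3 lower, with a median of -1.57, or -1.18 with 1 gene at its bound, and all were low. HVCN1, the voltage-gated proton channel, fell from 2.65 to 0.774 CPM on average (edgeR adjusted p = 0.00264). ATP12A, a proton/potassium pump, fell from 1.81 to 0.699 CPM (edgeR adjusted p = 0.0142), and did not pass without control replicate 1, where the log2 fold change was -1.23 beside -1.33 with all samples (edgeR adjusted p = 0.0732). SLC5A8, a sodium-coupled lactate transporter, was at the counting floor in every acidosis sample and at least 2.03-fold lower than the control mean of 0.480 CPM (adjusted p = 0.00817 in edgeR and 0.0636 in DESeq2).

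SRPIN340 was compared with the control at the same pH. Of the members, 0 passed higher, where 0.767% of all genes did, and 1 passed lower, where 1.53% did. No member was called, where 0.323% of all genes were, and DESeq2 also called 0. An unadjusted edgeR p under 0.05 was found for 3 members, or 37.5%, beside 17.6% of all genes. The member that passed was BSG, at 336 and 318 CPM with SRPIN340, below both controls. Its mean of 327 ± 12.2 CPM (SD, n = 2) gave a log2 fold change of -0.38 (SE 0.07, 95% interval -0.55 to -0.21, edgeR adjusted p = 0.038). This did not hold when any 1 of the 4 control and SRPIN340 samples was left out, with adjusted p from 0.0721 to 0.304 and log2 fold changes from -0.45 to -0.30.

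SLC9A7 stood at 76.0 and 77.6 CPM with SRPIN340, above both controls. The log2 fold change of 0.54 (SE 0.12, 95% interval 0.28 to 0.81) just missed the limit (edgeR adjusted p = 0.0503), and DESeq2 gave an adjusted p of 0.00225 for 0.54. SLC4A7 stood at 34.8 and 32.3 CPM, also above both controls, with a log2 fold change of 0.67 that did not pass (SE 0.21, edgeR adjusted p = 0.14). Without control replicate 2 it was 1.10 (edgeR adjusted p = 0.0421), which made it the 1 call among the members. SLC16A1, at 172 and 180 CPM, had a log2 fold change of 0.03 with a 95% interval from -0.14 to 0.19. SLC9A8, SLC4A2, SLC4A8 and SLC16A3 had log2 fold changes between -0.15 and -0.05, and their samples overlapped the controls.

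Of the 43 tested genes of the wider lists, 1 passed higher with SRPIN340 and 1 lower in edgeR (2.33% each, beside 0.767% and 1.53% of all genes), and DESeq2 passed 3. An unadjusted p under 0.05 was found for 8 of them, or 18.6%, beside 17.6% of all genes. The higher one was SLC16A7, from 13.3 and 12.01 CPM in control to 22.6 and 21.8 CPM, a log2 fold change of 0.81 (edgeR adjusted p = 0.0378). The lower one was the scaffold NHERF1, from 45.5 and 41.2 CPM to 29.5 and 30.3 CPM, a log2 fold change of -0.54 (edgeR adjusted p = 0.0498). Neither count held when any 1 of the 4 control and SRPIN340 samples was left out, since 0 of the 43 genes then passed.

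Acidosis was then set against SRPIN340. The 2 effects share the control samples, so this contrast is the test of their difference. Of the members, 2 passed higher, where 32.8% of all genes did, and 2 lower, where 35.0% did, and 2 were called in either direction, where 34.6% of all genes were. By total count only 1 passed higher and 5 lower, where 15.8% and 56.9% of all genes did. With that scaling 1 was called higher and 2 lower, where 5.21% and 37.0% of all genes were. BSG had a log2 fold change of 1.73 (SE 0.07, edgeR adjusted p = 5.43e-08), and every acidosis sample was over 3 times as high as both SRPIN340 samples. SLC4A7 had -1.28 (SE 0.20, edgeR adjusted p = 0.000273), with 32.3 CPM or more under SRPIN340 and 14.1 CPM or less in acidosis. For these 2 genes the control lay between the treatments, with the treatment means on opposite sides of the control mean.

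SLC16A1 was 0.45 higher in acidosis than with SRPIN340 on the log2 scale (edgeR adjusted p = 0.000231) and SLC4A2 was at -0.61 (edgeR adjusted p = 0.0165). By total count only SLC16A1 was at -0.17 (edgeR adjusted p = 0.0391), and SLC4A2 lost the test without SRPIN340 replicate 1 or 2 (-0.62 and -0.61, adjusted p = 0.0617 and 0.0683). SLC9A7 stood above control in both treatments, and the difference between them was 0.17 (95% interval -0.07 to 0.41, edgeR adjusted p = 0.192), which turned to -0.45 by total count only (edgeR adjusted p = 0.00346). SLC9A8, SLC4A8 and SLC16A3 did not pass, at -0.25, 0.34 and 0.06.

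For each member, the genes whose centered log2 CPM over the 7 samples lay closest, by Euclidean distance in log2 units, were sought among 10116 genes that averaged 10 CPM or more, and no test was made. BSG was followed most closely by PTBP1, at a distance of 0.0427, and GAPDH, at 0.119, where the median gene was at 2.05. SLC16A1 was nearest to OSBP (0.0809) and RAB14 (0.0853), with a median of 1.01. SLC9A7 was nearest to NPNT (0.171) and VGLL3 (0.227), SLC9A8 to API5 (0.121) and VPS11 (0.160), and SLC4A8 to NEXN (0.109) and PRRC1 (0.182). SLC4A2 had FAM111A (0.287) and COA3 (0.291) as its nearest genes. The nearest genes lay farther off for SLC4A7, with VPS33B and CKLF both at 0.5 beside a median of 1.73. For SLC16A3 they were CDC42BPG (1.39) and USP13 (1.42), beside a median of 2.48. SLC16A3 was itself far below the 10 CPM asked of these genes, and the part of counting noise in its distances was not tested.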

How the data were processed

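The 7 libraries were poly(A)-selected RNA of HEK-293 cells in 3 groups, assigned by the labels' treatments. The authors trimmed the reads (Trimmomatic 0.39, Trim Galore 0.6.6), ran Salmon 1.5.1 against the Gencode GRCh38.p13 transcripts and used tximport to sum transcripts per gene, and the deposited values are estimated counts, not normalized between samples. Of 19978 gene identifiers, 19977 matched a symbol in GENCODE release 44, and 1951 were at 0 in every sample. After rounding, the estimated counts of all genes entered one fit of the 7 samples (R 4.3.3, edgeR 4.0.16), with TMM, filterByExpr, the quasi-likelihood test and the Benjamini-Hochberg adjustment, and standard errors were taken from the test statistic. DESeq2 1.42.0 (Wald test, the authors' tool) was an alternative, with other scalings, no filter, only the groups compared, a replicate block and each sample left out. Ratios of 2 genes used a pseudocount of 0.5 counts and exact permutation tests. On simulated counts the share of false passes was somewhat above the adjusted p limit. Replicates of a group differed by more than sampling noise in every pair.

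The members and gene lists were chosen with earlier results of these data known, and the lists hold genes of the same families from textbook knowledge. All members are named in every comparison. Of the wider lists, well known genes and up to 3 called genes per list with the largest change in acidosis are named, and for each member the 2 genes with at least 10 mean CPM at the smallest Euclidean distance. Some genes of the wider lists are not reported here by name. Splicing and protein levels were not analysed here. Library totals of 13615816 to 24110460 counts set the precision, which is lowest for SLC16A3, and intervals cover the spread between these samples.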

Additional observations from a re-analysis of the deposited data

How the results depend on the processing

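Of the single-gene values recomputed under the alternatives, 454 kept their direction and side of the test, 12 came to pass it, 26 no longer passed it and 25 changed sign. Scaling by total count only shifted the whole acidosis contrast and changed the sign of SLC4A8 (-0.38), SLC16A1 (-0.10), SLC16A3 (-0.56), SLC4A3 (-0.49) and SLC26A11 (-0.056) against control and of SLC9A7 (-0.45), SLC4A8 (-0.27), SLC16A1 (-0.17) and SLC16A3 (-0.55) against SRPIN340, all log2 fold changes, and 2 members were called in acidosis. SLC16A3 in acidosis was -0.019 without the filter and -0.014 with only the groups compared. With SRPIN340, 2 members passed by total count only, without the filter, with only the groups compared and in DESeq2, and the wider lists had 1 pass with relative log expression size factors, by total count only and without the filter. With each sample left out in turn, 3 to 5 members passed and 1 to 2 were called in acidosis, and 0 to 1 passed and 0 to 1 were called with SRPIN340, where the wider lists had 0 pass. The same omissions moved SLC16A3 from -0.42 to 0.48 in acidosis, from -0.88 to 0.47 with SRPIN340 and from -0.46 to 0.88 between them, and SLC4A3 in acidosis from -0.17 to 0.37. With SRPIN340 they moved SLC9A8 from -0.22 to 0.0095, SLC4A2 from -0.40 to 0.27, SLC4A8 from -0.32 to 0.028 and SLC16A1 from -0.040 to 0.094, and the SLC4A2/SLC4A7 log2 ratio difference ran from -0.20 to 0.0046. Taking coding transcripts' median length left 4 of 8 places in the order of levels. Whether the numbers of the replicates pair the samples is not known. The 6 same-numbered pairs had correlations of their deviations between -0.115 and 0.063, which shows no shared deviation but cannot exclude matched cultures. In a group of 2 samples the deviations mirror each other, so the 6 pairs are not independent. With a replicate block, 4 members passed in acidosis (SLC4A7 at adjusted p = 0.0623), 0 with SRPIN340 (BSG at 0.118), 4 between the treatments, and 0 genes of the wider lists passed with SRPIN340. Beyond the shift that total count scaling applies to all genes and the fewer samples of the omissions, the cause of these changes was not tested. Groups of 2 and 3 samples, 1 cell line and 2.92 to 49.5 counts per library for SLC16A3 limit what these data can show.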
